A study of Mus musculus with 4 samples.

Results

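The germ-cell deacetylase complex built on ZFP541 and KCTD19 was followed at the transcript level through 8 genes of the 24411 listed for each library. The genes were listed by name, as subunits and paralogues, with earlier results of these data known. *Zfp541*, *Kctd19*, *Hdac1*, *Hdac2* and *Dnttip1* encode the complex, *Trerf1* and *Elmsan1* encode the scaffolds of the related complex of somatic cells, and *Hdac3* encodes the class I deacetylase of a different corepressor. All 8 had a mean of at least 1 TPM and entered the test across genes. The cells were GFP-positive male germ cells sorted from testes at postnatal day 18 of mice with the knock-in allele *Rec8-3xFLAG-HA-p2A-GFP*, in which GFP is made together with REC8, a cohesin subunit of meiotic chromosomes. There were 2 control libraries of the genotype *Zfp541*+/-, so the controls also carried 1 deleted allele. The other 2 libraries had the genotype *Zfp541*KO by label. They are called KO-labelled here because the level per gene of the targeted gene was not lower in them. The deletion was made by CRISPR-Cas9 in fertilized eggs and several lines were kept, of which the study names 1 as its default, with no other line given for these libraries. The labels give a mixed C57BL/6 and CBA strain, whereas the methods of the study give C57BL/6. Both KO testes and 1 control testis were homozygous for the knock-in and the other control testis was heterozygous, without a statement of which control was which, so that knock-in dose and *Zfp541* genotype cannot be told apart for that control.

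Class I histone deacetylases remove acetyl groups from histone tails and act as the catalytic subunits of large corepressors. In several of these corepressors the enzyme is held by a scaffold protein with an ELM2-SANT domain pair, and the identity of the scaffold sets which complex is formed. MTA proteins build NuRD, RCOR proteins build CoREST and MIER proteins build further HDAC1/2 complexes. MIDEAS (encoded by *Elmsan1*) and TRERF1 build the mitotic deacetylase complex MiDAC together with TDIF1, the product of *Dnttip1*. ZFP541 is an ELM2-SANT protein specific to germ cells, where it associates with KCTD19, a BTB/POZ protein, and with HDAC1, HDAC2 and TDIF1. The paper also lists MIDEAS and TRERF1 in KCTD19 precipitates from testis, so the word somatic does not mean that they are absent there.

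The oligonucleotides that define the deleted allele are shown because the targeted gene itself is the first member to be examined. The guide to exon 1 lies at chr7:16071941-16071959 on the plus strand (GRCm38), next to a GGG motif, and the capitals mark the first codon of *Zfp541*, which begins at position 16071942. In the GENCODE M21 annotation this is exon 1 of a coding transcript with 14 exons and exon 3 of a coding transcript with 18 exons. The second guide was designed to intron 13 and was not placed on the genome here. The last line is the coding strand of the repair template from the first codon on, with the first codon and an in-frame stop codon in capitals.
exon 1 guide: cATGgagccatacagtctt
intron 13 guide: acgaccaaagaaacagtgct
repair template, coding strand from the first codon: ATGgagccatacagtaaaTAAatactg
The template leaves 6 codons before the stop and carries an insert of 8 nt between the joined ends. Downstream of exon 13 the 14-exon transcript of 4084 nt keeps 323 nt in 1 exon, 7.91% of its length, and the 18-exon transcript of 4879 nt keeps 644 nt, 13.2%. Upstream of the first guide, 20 nt of the 14-exon transcript and 311 nt of the 18-exon transcript also lie outside the deletion. The deposited values are 1 per gene, so reads from the kept parts and from the deleted exons are not separated in them.

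The libraries were described only as far as they touch these genes. The deposited TPM values (a transcript abundance corrected for length) sum to 1000000 in each library and keep no depth. The controls stood far from each other: the Euclidean distance on log2(TPM + 1) between them was 153, against 49.2 between the KO-labelled libraries, 123 and 111 from control 1 to those, and 133 and 131 from control 2. All 8 markers of meiotic prophase had a mean of at least 1 TPM, and their summed level was 3483 and 3691 TPM in controls and 5823 and 6210 TPM in the KO-labelled libraries. The 8 leptotene and zygotene markers summed to 678 and 848 TPM in controls against 1128 and 1118 TPM. The 8 pachytene markers summed to 6946 and 3304 TPM against 2547 and 3530 TPM. The 8 spermatogonial markers summed to 324 and 980 TPM against 674 and 485 TPM. Markers of other testis cells were present despite the sort, and the 6 Leydig and 4 macrophage markers summed to 2910 and 1568 TPM in control 1, to 18.0 and 15.3 TPM in control 2, and to 331 to 504 and 924 to 1286 TPM in the KO-labelled libraries. The 7 Sertoli markers summed to 715 to 1082 TPM, the 5 red blood cell markers to 20.3 to 280 TPM, the 7 spermatid markers to 19.4 to 37.5 TPM, the 4 peritubular markers to 12.2 to 23.9 TPM and the 3 endothelial markers to 1.23 to 8.80 TPM. No marker was listed at 0 in all 4 libraries; the spermatid markers *Tnp1* and *Prm1*, which encode proteins that pack sperm DNA, were at 0 in 2 and 3 libraries. In bulk RNA, fewer cells of a type and less RNA per cell cannot be told apart.

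Transcripts of the complex were abundant in these libraries, and those of the scaffolds of the related somatic complex were not. Protein was not measured here. *Kctd19* was the highest of the 8 genes in 3 of 4 libraries, *Zfp541* was sixth in every library, and *Trerf1* and *Elmsan1* were seventh and eighth in every library. *Zfp541*, *Kctd19*, *Hdac1*, *Hdac2*, *Hdac3* and *Dnttip1* lay between 72.2 and 379 TPM in all 4 libraries, whereas *Trerf1* and *Elmsan1* did not exceed 15.5 and 5.41 TPM. Between these blocks of genes the ranges did not meet. Within the upper block, the ranges of neighbours in the order overlapped, from *Kctd19* (242.9 to 379 TPM) over *Hdac1* (218 to 324 TPM), *Hdac2* (149 to 272 TPM), *Dnttip1* (149 to 194 TPM) and *Hdac3* (124 to 234 TPM) to *Zfp541* (72.2 to 151 TPM), so that only non-neighbours such as *Kctd19* and *Zfp541* were apart in level. Among all genes listed, *Zfp541* ranked between 1435 and 2725 and *Kctd19* between 419 and 758, counted from the highest level.

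**Figure D1:**
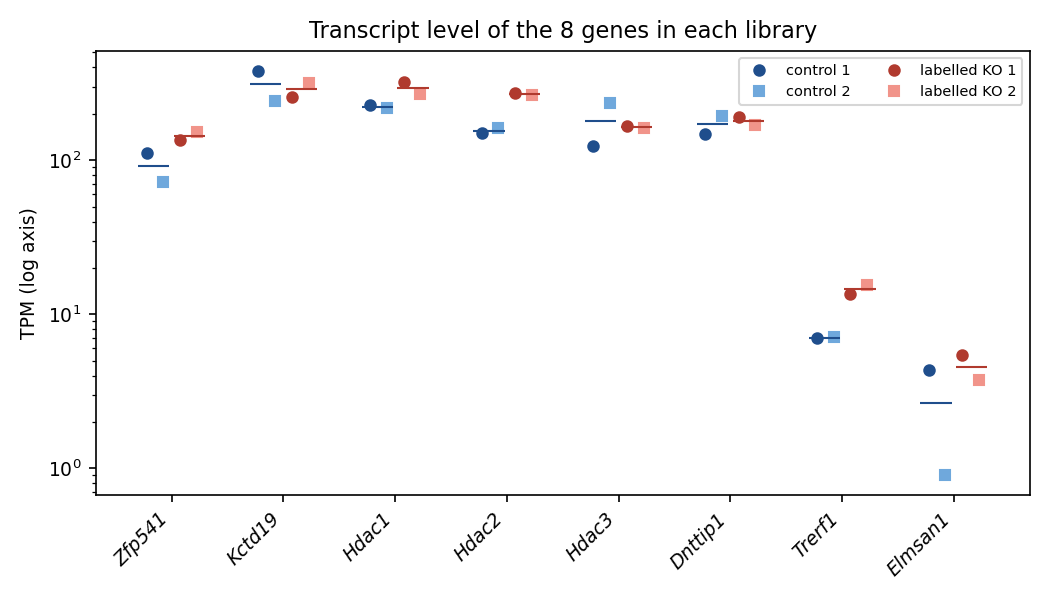
TPM (log axis) of each of the 8 genes in each library; points are libraries, blue for control and red for the KO-labelled libraries, and short lines are group means of 2 libraries. *Zfp541*, *Hdac1*, *Hdac2* and *Trerf1* have both red points above both blue points, and *Trerf1* and *Elmsan1* lie at or below 15.5 TPM.

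*Zfp541*, the targeted scaffold, was not lower under the KO label. It was at 112 TPM in control 1, 72.2 TPM in control 2, 136 TPM in KO 1 and 151 TPM in KO 2. The groups did not overlap, and both KO-labelled libraries were above both controls. The value does not separate the deleted from the kept parts of the gene, so it cannot show whether the label holds. It says nothing of the protein. Genotypes are taken from the labels, and every direction given here is relative to KO-labelled libraries. The log2 difference was 0.67 (SE 0.28, 95% interval -0.085 to 1.42, n = 2 per group; adjusted p = 0.371, limma with Benjamini-Hochberg adjustment). Over all 14512 genes tested the median log2 difference was 0.28, and *Zfp541* lay 0.38 above it, at the 76.2 percentile. After median-ratio scaling, which removes that shift, the difference was 0.34 and the groups still did not overlap.

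*Kctd19*, the BTB/POZ partner, was at 379 and 242.9 TPM in controls and at 258 and 318 TPM in the KO-labelled libraries. The highest and the lowest value both belonged to controls, so the groups overlapped. The log2 difference was -0.084 (SE 0.30, 95% interval -0.90 to 0.73; adjusted p = 0.913, limma). Relative to the median of all genes it was -0.37. After median-ratio scaling the values were 377 and 303 in controls and 226 and 287 in the KO-labelled libraries, where the groups no longer overlapped and the latter were lower.

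The balance of the partners was steadier than either gene between the controls. The ratio of *Kctd19* to *Zfp541* TPM, which no scaling of a library changes, was 3.39 in control 1, 3.36 in control 2, 1.90 in KO 1 and 2.10 in KO 2. Although control 1 exceeded control 2 in both genes, the controls had nearly the same ratio, and both KO-labelled libraries were below them. In the KO-labelled libraries the *Zfp541* value does not separate the deleted from the kept parts, so the ratio there is not that of intact transcripts. On the log2 scale the ratio of *Zfp541* to *Kctd19* was -1.75 ± 0.0070 (SD, n = 2) in controls and -0.998 ± 0.10 (SD, n = 2) in the KO-labelled libraries, a difference of 0.76. The exact permutation test gave p = 0.33, two-sided, which is the smallest value that 2 against 2 libraries can give. *Kctd19* shares 56 nt of its 3′ end with *Plekhg4* on the opposite strand. The methods of the study do not state whether the libraries kept strand, so reads in that stretch cannot be assigned to either gene with certainty.

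The catalytic subunits *Hdac1* and *Hdac2* were both higher in the KO-labelled libraries, on a scale that also moved for most genes. *Hdac2* was at 149 and 161 TPM in controls and at 272 and 265 TPM in the KO-labelled libraries. The SD was 8.47 TPM in controls and 4.69 TPM in the KO-labelled libraries (n = 2 each), small beside the gap between the groups. The log2 difference was 0.79 (SE 0.18, 95% interval 0.31 to 1.26), with an unadjusted p of 0.0093 and an adjusted p of 0.310 in limma, so it did not pass the FDR of 0.05. After median-ratio scaling it was 0.46 and the groups still did not overlap.

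*Hdac1* was at 226 and 218 TPM in controls and at 324 and 267 TPM in the KO-labelled libraries. The groups did not overlap in TPM, but after median-ratio scaling they did (225 and 272.5 in controls, 283 and 241 in the others), and the log2 difference moved from 0.40 (SE 0.20, 95% interval -0.14 to 0.94; adjusted p = 0.416, limma) to 0.078. *Hdac1* exceeded *Hdac2* in every library, by a ratio of 1.52 and 1.35 in controls and of 1.19 and 1.01 in the KO-labelled libraries. The share of *Hdac2* in the sum of both was accordingly 39.7% and 42.5% in controls and 45.7% and 49.8% in the others, a difference of 6.61 percentage points (exact permutation p = 0.33, two-sided, the smallest possible). The sum of both genes was 376 and 379 TPM in controls and 596 and 533 TPM in the KO-labelled libraries. The meiotic prophase and the leptotene and zygotene marker sums given above were also higher in both KO-labelled libraries than in either control, and their part in the deacetylase levels was not tested.

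*Hdac3*, the enzyme of the NCoR/SMRT corepressor and not a subunit of the ZFP541 complex, behaved differently from *Hdac1* and *Hdac2* between the controls. It was at 124 TPM in control 1 and 234 TPM in control 2, with 168 and 163 TPM in the KO-labelled libraries between them. The log2 difference was -0.047 (SE 0.35, 95% interval -1.003 to 0.91; adjusted p = 0.963, limma). Its share of the summed class I enzymes *Hdac1*, *Hdac2* and *Hdac3* was 24.9% and 38.2% in controls and 22.0% and 23.4% in the KO-labelled libraries (exact permutation p = 0.33, two-sided), and control 2 stood well above the other 3 libraries.

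*Dnttip1*, which encodes the TDIF1 subunit shared by MiDAC and the ZFP541 complex, varied least of the 8 genes in deposited TPM. It was at 149 and 194 TPM in controls and at 189 and 168 TPM in the KO-labelled libraries, and the highest value was 1.302 times the lowest. After median-ratio scaling that factor was 1.64, and *Hdac1* varied least with 1.26. The groups overlapped, with a log2 difference of 0.071 (SE 0.22, 95% interval -0.53 to 0.67; adjusted p = 0.900, limma), which turned to -0.25 after median-ratio scaling. *Hdac1* and *Hdac2* together gave 2.53 and 1.96 TPM for each TPM of *Dnttip1* in controls and 3.15 and 3.17 in the KO-labelled libraries (exact permutation p = 0.33, two-sided). Exons of *Dnttip1* overlap the antisense gene *Gm11457*, from which its reads cannot be separated if strand was not kept.

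Transcripts of the scaffolds of the somatic complex were minor. *Trerf1*, which encodes a zinc finger protein with an ELM2-SANT pair, was at 6.97 and 7.13 TPM in controls and at 13.6 and 15.5 TPM in the KO-labelled libraries. The controls were nearly equal and the groups did not overlap, in TPM or after median-ratio scaling. The log2 difference was 0.95 (SE 0.33, 95% interval 0.067 to 1.83), with an unadjusted p of 0.040 and an adjusted p of 0.331 in limma. It lay at the 89.2 percentile of all genes tested. It was the largest difference of the 8 genes at a pseudocount of 1 with all libraries. *Elmsan1* was larger at a pseudocount of 0.1 (1.12 against 1.03), without control 1 (1.53 against 0.93) and without KO 2 (1.001 against 0.855). *Hdac2* was larger at a pseudocount of 5 (0.77 against 0.70) and after quantile normalization (0.78 against 0.71). *Elmsan1*, which encodes MIDEAS, was at 4.37 and 0.91 TPM in controls and at 5.41 and 3.75 TPM in the KO-labelled libraries. Control 2 was low and the other 3 libraries lay close together, so that the groups overlapped and the log2 difference of 0.78 had a wide interval (SE 0.65, 95% interval -0.96 to 2.53; adjusted p = 0.593, limma). Control 2 was also the library with the lowest Leydig and macrophage marker sums, whose part in the *Elmsan1* level was not tested.

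Among the genes of the 3 scaffolds that can pair with TDIF1, *Zfp541* held nearly all of the summed TPM in every library. In the KO-labelled libraries the *Zfp541* value does not separate the deleted from the kept parts, so it does not give the level of intact scaffold transcripts. The share of *Zfp541* was 90.8% and 90.0% in controls and 87.7% and 88.7% in the KO-labelled libraries, a difference of -2.18 percentage points (exact permutation p = 0.33, two-sided, the smallest possible). The sum of the 3 scaffolds was 123 and 80.3 TPM in controls and 155 and 171 TPM in the others, and *Dnttip1* stood at 1.21, 2.41, 1.22 and 0.98 times that sum in control 1, control 2, KO 1 and KO 2. The ratio of *Trerf1* to *Elmsan1* ran from 1.60 to 7.84 between the controls alone, a range that enclosed both KO-labelled libraries at 2.51 and 4.14.

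**Figure D2:**
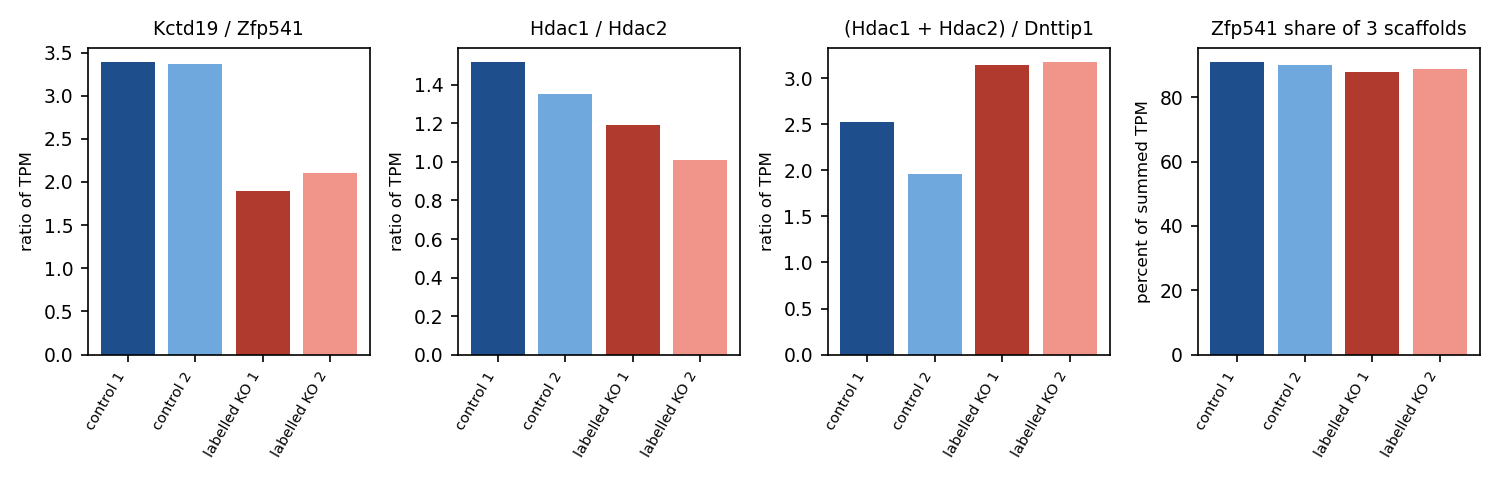
Ratios and shares within each library, 1 bar for each library, from left to right *Kctd19* to *Zfp541*, *Hdac1* to *Hdac2*, the sum of *Hdac1* and *Hdac2* to *Dnttip1* (ratios of TPM), and *Zfp541* as percent of the summed TPM of *Zfp541*, *Trerf1* and *Elmsan1*. The first ratio is 3.39 and 3.36 in controls and 1.90 and 2.10 in the KO-labelled libraries, and the share of *Zfp541* stays between 87.7% and 90.8%.

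None of the 8 genes passed the FDR of 0.05 in limma, nor did any of the 14512 genes tested (0%), at a smallest adjusted p of 0.310. At an unadjusted p under 0.05, *Hdac2* and *Trerf1* were higher and no member was lower, against 10.7% of all genes higher (1549 genes) and 3.73% lower (542 genes). After median-ratio scaling this balance turned, to 4.33% higher (629 genes) and 7.44% lower (1079 genes), and there, as with replicate number as a block, 0 members had an unadjusted p under 0.05. The groups did not overlap for 4 of 8 members, all higher in the KO-labelled libraries, where 38.6% of all genes tested were higher without overlap and 12.1% lower. After median-ratio scaling, 3 members were higher without overlap (*Zfp541*, *Hdac2* and *Trerf1*) and 1 was lower (*Kctd19*), against a background of 23.1% and 22.3%. The median log2 difference of the members was 0.53, or 0.21 after median-ratio scaling, and 5 of 8 lay above the median of all genes. These p-values rest on the spread between 2 testes in each group, with the variance of each gene drawn by limma toward that of genes of like level.

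Which control was used decided several of these calls. Without control 1, *Zfp541* (log2 difference 0.98, adjusted p = 0.0106 in limma), *Hdac2* (0.73, adjusted p = 0.0109), *Trerf1* (0.93, adjusted p = 0.0309), *Elmsan1* (1.53, adjusted p = 0.0252) and *Hdac3* (-0.50, adjusted p = 0.0202) passed, in a fit where 38.7% of all genes passed as higher and 9.47% as lower. Without control 2, *Hdac2* (0.84, adjusted p = 0.0228), *Trerf1* (0.96, adjusted p = 0.0465) and *Hdac3* (0.41, adjusted p = 0.0487) passed in limma, where 15.5% of all genes passed as higher and 12.9% as lower. *Hdac3* thus changed sign with the control used, whereas *Hdac2* and *Trerf1* kept theirs. *Elmsan1* was at 0.039 without control 2. *Kctd19* was at 0.24 without control 1 and 0.066 without KO 1, and *Dnttip1* at -0.12 and -0.015. In these fits the lone control was assumed to vary like the KO-labelled pair, which was the closest pair of libraries, and with either KO library left out no gene passed.

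**Figure D3:**
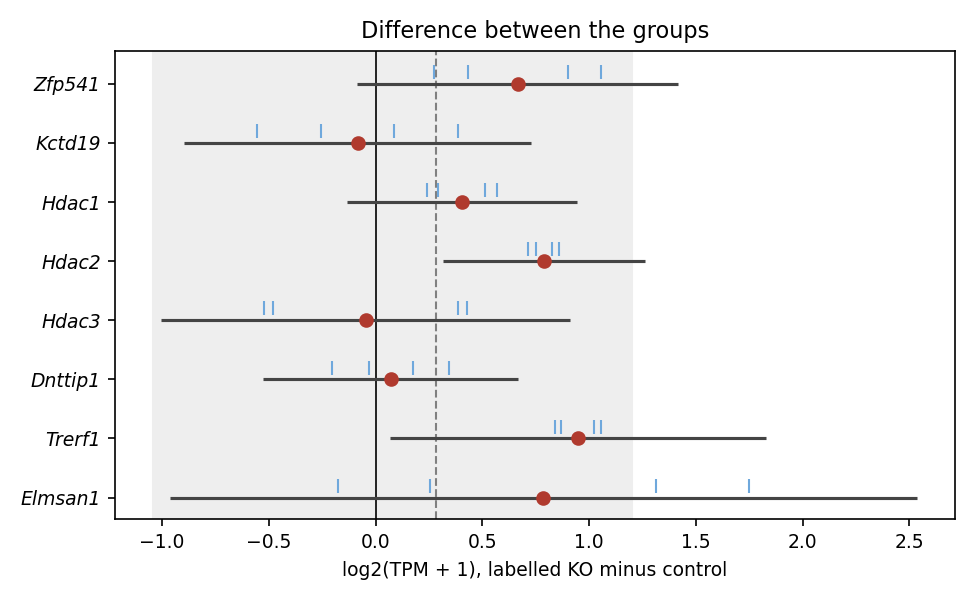
Difference in log2(TPM + 1), KO-labelled libraries minus controls, for the 8 genes; red points are limma estimates, dark lines 95% intervals, blue ticks the 4 differences between single libraries, the dashed line the median of all genes (0.28) and the grey band their 5th to 95th percentile (-1.04 to 1.20). Only the intervals of *Hdac2* and *Trerf1* exclude 0, and all 8 points lie inside the grey band.

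By mean level over the 4 libraries *Zfp541* was the highest of the 13 genes that encode ELM2-SANT proteins, and *Trerf1* and *Elmsan1* were the lowest. *Zfp541* held 16.2% and 13.3% of their summed TPM in controls and 18.5% and 20.6% in the KO-labelled libraries, with sums of 692 and 544 TPM against 735 and 734 TPM. The next gene by mean level, *Mta2* of the NuRD complex, was at 99.8 and 106 TPM in controls and at 107 and 96.7 TPM in the others, a log2 difference of -0.015. *Zfp541* had rank 1 in 3 libraries and rank 4 in control 2, where *Mta2*, *Mta3* (91.3 TPM) and *Mta1* (77.0 TPM), all of NuRD, were above it. The mean of the controls was 92.1 TPM for *Zfp541* and 103 TPM for *Mta2*, so in controls alone *Mta2* was the higher. In the KO-labelled libraries the *Zfp541* value does not separate the deleted from the kept parts of the gene. Beside *Trerf1*, the largest differences were those of *Mier1*, which encodes an HDAC1/2 scaffold, at 34.5 and 26.5 TPM against 58.4 and 59.9 TPM (log2 difference 0.94, SE 0.23; adjusted p = 0.310, limma), and of the CoREST scaffold *Rcor1*, at 43.6 and 15.6 TPM against 46.4 and 53.1 TPM (0.89, SE 0.53; adjusted p = 0.483). The lowest were the other CoREST scaffolds, *Rcor3* at 97.2 and 20.3 TPM against 26.0 and 26.9 TPM (-0.73, SE 0.78) and *Rcor2* at 14.4 and 43.1 TPM against 25.3 and 21.5 TPM (-0.10, SE 0.58). For *Rcor3* the difference came from control 1 alone, and for both genes the controls enclosed the other libraries. Of the 13 genes, 0 passed the FDR in limma and 2 were higher at an unadjusted p under 0.05 (10.7% of all genes). The groups did not overlap for 6 higher genes (46.2%) and 0 lower genes, against 38.6% and 12.1% of all genes, and the median log2 difference was 0.59 against 0.28 for all genes. Without control 2 these medians were 0.29 and 0.15, and with a filter of 5 TPM 0.37 and 0.31. After median-ratio scaling 4 were higher without overlap and 3 lower (23.1% and 22.3% of all genes), with a median of 0.27.

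**Figure D4:**
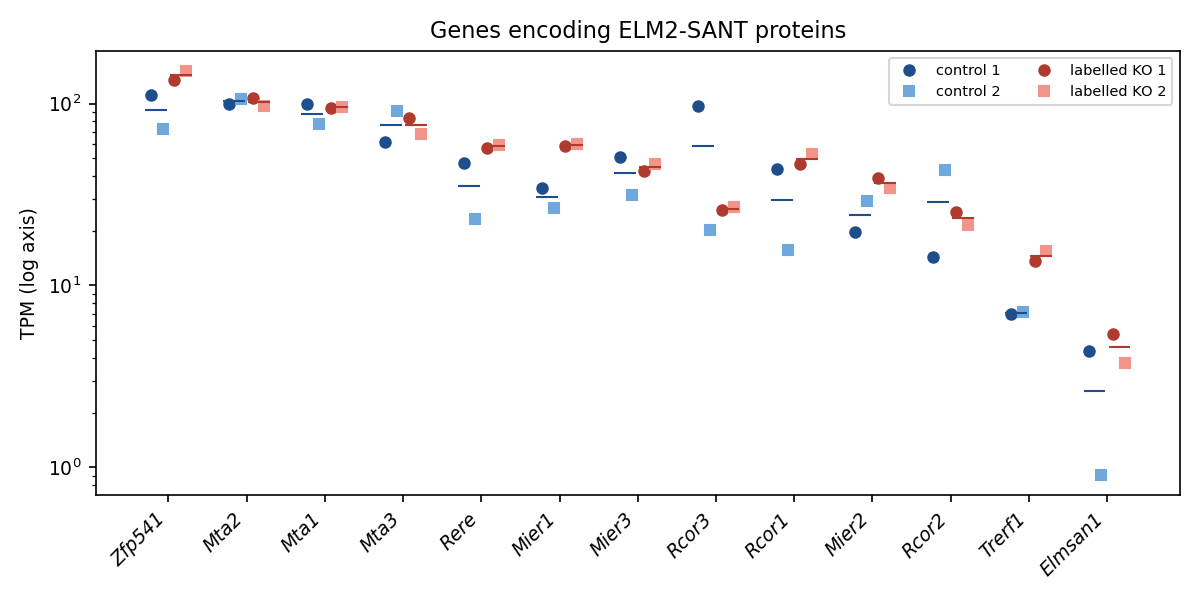
TPM (log axis) of the 13 genes that encode ELM2-SANT proteins, ordered by mean level over the 4 libraries, with 1 point for each library and short lines for group means of 2 libraries. *Zfp541* is first, followed by *Mta2*, and *Trerf1* and *Elmsan1* are last.

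By mean over the 4 libraries *Hdac1* and *Hdac2* were the highest of 18 genes for histone deacetylases and sirtuins, the NAD-dependent deacylases. In control 2 *Hdac3* was above both, and in control 1 *Sirt2* was above *Hdac2*. *Hdac9* (0.65 to 3.36 TPM) and *Hdac8* (1.78 to 5.83 TPM) were the lowest, and *Hdac8* is the class I enzyme that works outside these corepressors. The largest differences belonged to *Sirt6*, at 13.4 and 13.2 TPM in controls and 28.8 and 25.7 TPM in the KO-labelled libraries (log2 difference 0.98, SE 0.27), *Sirt1*, at 61.6 and 44.3 TPM against 99.6 and 105 TPM (0.96, SE 0.24), and *Hdac4*, at 9.51 and 4.85 TPM against 13.8 and 13.1 TPM (0.88, SE 0.43). *Sirt3*, a mitochondrial sirtuin, was lowest in its difference, at 81.0 and 79.3 TPM against 49.8 and 44.9 TPM (-0.75, SE 0.19). *Hdac7* (-0.27, SE 0.93) had controls of 11.7 and 1.22 TPM around 3.42 and 3.39 TPM, and *Sirt2* (-0.25, SE 0.22) was at 207 and 158 TPM against 146 and 157 TPM. Adjusted p-values of the 18 genes ran from 0.310 to 0.993 in limma and 0 passed the FDR, with 4 higher and 1 lower at an unadjusted p under 0.05 (10.7% and 3.73% of all genes). Without overlap 8 (44.4%) were higher and 2 (11.1%) lower, close to the 38.6% and 12.1% over all genes, and the median log2 difference was 0.33. After median-ratio scaling 5 were higher without overlap and 3 lower (23.1% and 22.3% of all genes), with a median of 0.049.

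The 34 other subunits of the NuRD, SIN3, CoREST and NCoR/SMRT complexes, which compete for or use the same class I enzymes, were all measured. *Sin3b*, a SIN3 scaffold, was the highest at 462 and 1240 TPM in controls against 719 and 642 TPM in the KO-labelled libraries, above every member of the ZFP541 complex. *Rbbp4*, a histone chaperone of NuRD and SIN3, followed at 215 and 319 TPM against 241 and 231 TPM. The neuronal remodeler *Chd5* (2.11 to 3.52 TPM) and *Gse1* (7.92 to 13.01 TPM) were the lowest. The largest differences were those of *Fam60a*, a SIN3 subunit, at 17.6 and 26.5 TPM against 49.0 and 48.6 TPM (log2 difference 1.14, SE 0.29), *Arid4b*, also of SIN3, at 52.3 and 32.3 TPM against 83.9 and 85.2 TPM (1.02, SE 0.29), and the NuRD remodeler *Chd3*, at 68.7 and 44.3 TPM against 116 and 106 TPM (1.00, SE 0.28). The lowest were *Brms1* of SIN3, at 112 and 114 TPM against 71.1 and 80.9 TPM (-0.57, SE 0.18), *Gps2* of NCoR/SMRT, at 227 and 219 TPM against 169 and 170 TPM (-0.39, SE 0.17), and *Mbd3* of NuRD, at 219 and 242 TPM against 182.5 and 190 TPM (-0.31, SE 0.18). These 6 genes were picked by their differences, and in each the groups did not overlap. None of the 34 passed the FDR in limma (smallest adjusted p = 0.310), 20 (58.8%) were higher without overlap and 3 (8.82%) lower, against 38.6% and 12.1% of all genes, and at an unadjusted p under 0.05 there were 6 higher and 1 lower, against 10.7% and 3.73%. The median log2 difference was 0.35, and 0.17 without control 2. After median-ratio scaling 15 were higher without overlap and 10 lower (23.1% and 22.3% of all genes), with a median of 0.070.

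*Kctd19* was the highest of the 22 KCTD genes, which encode proteins with a BTB-type domain related to that of potassium channels. It held 40.7% and 31.3% of their summed TPM in controls and 26.7% and 31.9% in the KO-labelled libraries (exact permutation p = 0.67, two-sided). *Kctd13*, a cullin-3 adaptor, was next, at 83.6 and 110 TPM against 116 and 111 TPM. *Kctd8* and *Kctd16*, subunits of GABA-B receptors, were the lowest, with at most 0.08 and 0.19 TPM and a 0 in 3 libraries each, and with *Kctd4* they were not tested. Of the 19 genes tested, the largest differences were those of *Kctd12*, at 29.2 and 4.20 TPM against 33.5 and 27.6 TPM (log2 difference 1.32, SE 0.91), *Kctd3*, at 49.9 and 54.8 TPM against 86.3 and 85.0 TPM (0.70, SE 0.18), and *Kctd12b*, at 2.09 and 0.22 TPM against 2.23 and 1.97 TPM (0.67, SE 0.59). *Kctd12* and *Kctd12b* were low in control 2 alone, as were the Leydig and macrophage marker sums, and the part of these cells was not tested. The lowest differences were those of *Kctd17* (-0.58, SE 0.40), *Kctd19* and *Kctd10* (-0.078, SE 0.22), so *Kctd19* was among the 4 of 19 genes with a negative difference. Without overlap 8 (42.1%) were higher and 1 (5.26%) lower, close to and below the 38.6% and 12.1% of all genes, and the median log2 difference was 0.31, or 0.16 without control 2. In limma 0 passed the FDR and 1 was higher at an unadjusted p under 0.05 (10.7% of all genes). After median-ratio scaling 3 were higher without overlap and 4 lower (23.1% and 22.3% of all genes), and the median turned to -0.0068.

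**Figure D5:**
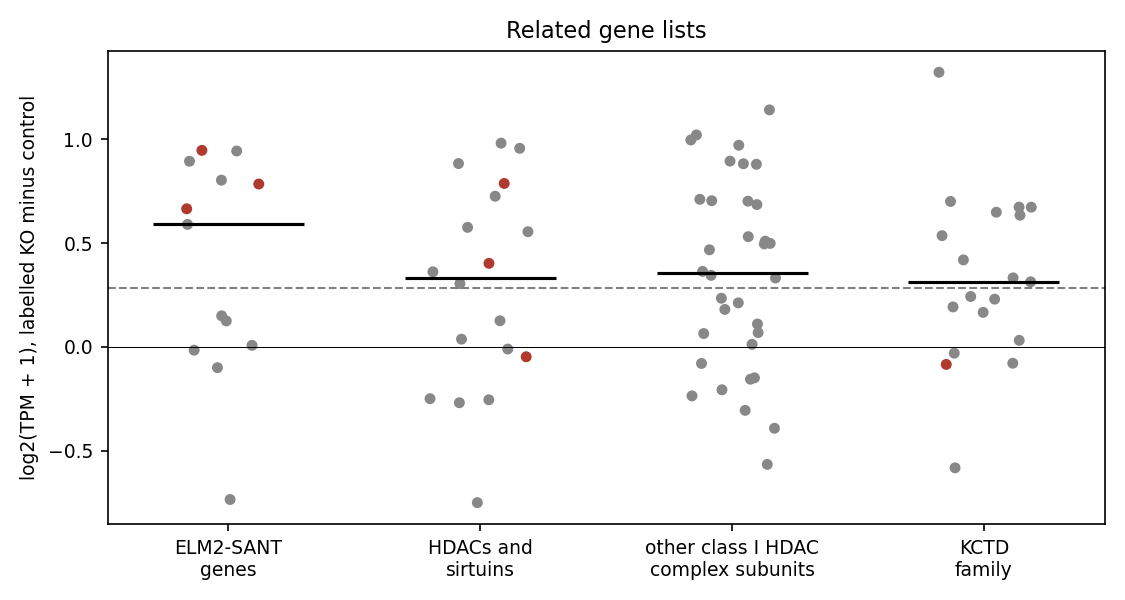
Difference in log2(TPM + 1), KO-labelled libraries minus controls, for each tested gene of the 4 related lists; red points are members of the complex and its paralogues, grey points other genes, black lines list medians and the dashed line the median of all genes tested (0.28). The medians are 0.59, 0.33, 0.35 and 0.31 from left to right, and *Kctd19* is the red point of the KCTD family, at -0.084.

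*Zfp541* and *Kctd19* were not among each other's nearest profiles over the 4 libraries. Likeness was measured as the root mean square difference of log2(TPM + 1), each gene centred on its own mean, among the 9836 genes whose mean was 10 TPM or more, and over 4 samples it is a description. The genes nearest to *Zfp541* were *Gm6297* (0.016), *Myef2*, which encodes an RNA-binding protein (0.017), and *Ints6*, a subunit of the Integrator complex (0.022). *Myef2* reached 257 and 163 TPM in controls against 302 and 344 TPM in the KO-labelled libraries. The genes nearest to *Kctd19* were *Ino80c*, of the INO80 remodeler (0.030), *Fam221a* (0.036) and *Snrnp35*, of the minor spliceosome (0.039), and *Ino80c* was at 87.3 and 55.0 TPM against 60.7 and 70.7 TPM. *Zfp541* and *Kctd19* were 0.38 apart, with 4684 genes nearer to *Zfp541* and 3639 genes nearer to *Kctd19*. The members nearest to *Kctd19* were *Zfp541* (0.378) and *Hdac1* (0.379). Of the other members *Trerf1* (0.27), *Hdac2* (0.28) and *Hdac1* (0.29) were the nearest to *Zfp541* and *Hdac3* the farthest (0.65).

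*Rec8*, on which the sort was based, was at 7.05 and 27.9 TPM in controls and at 27.7 and 19.4 TPM in the KO-labelled libraries (log2 difference 0.67, SE 0.70; adjusted p = 0.675, limma). It was low in control 1 and highest in control 2, with the KO-labelled libraries between them, an order of libraries that *Hdac3* and *Dnttip1* also had. The knock-in added a tag in frame at the end of the *Rec8* coding sequence, and the level per gene does not separate tagged from untagged transcripts.

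The matched start regions of the members fell into different kinds of sequence. RefSeq windows of 300 nt (250 before to 50 after the start; GRCm38.p6) were matched for 5 of the 8 genes. *Zfp541*, the germ-cell scaffold, had 44.7% G + C and 4 CpG sites in its window at chr7:16071595-16071894, and *Trerf1* had 56.7% and 5. The other windows were richer. *Dnttip1* had 68.3% and 32 CpG sites, *Hdac2* 69.7% and 36, and the windows of *Elmsan1* 69.3% and 33 and 68.0% and 20. The windows of *Dnttip1* and *Hdac2* and the former of *Elmsan1* spanned the annotated gene start. Those of *Zfp541* and *Trerf1* and the latter of *Elmsan1* lay inside the gene. No window was matched at the annotated starts of *Zfp541* (chr7:16061814) and *Trerf1* (chr17:47140875), and the part of window position in the contrast was not tested. The medians of all 32851 windows were 52.7% and 7 CpG sites. The letters GGGCGG, searched on both strands, were found in the windows of *Dnttip1*, *Hdac2* and *Elmsan1* and in 35.7% of all windows, and CNCCTCAG in no member window and in 7.90% of all windows. The genes lie apart in the genome (GRCm38, GENCODE M21), with *Zfp541* at chr7:16061814-16096334, *Kctd19* at chr8:105382807-105413502, *Hdac1* at chr4:129516104-129542713, *Hdac2* at chr10:36974544-37001889, *Hdac3* at chr18:37935844-37955016, *Dnttip1* at chr2:164745983-164768607, *Trerf1* at chr17:47140875-47361958 and *Elmsan1* at chr12:84149176-84218881.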

How the data were processed

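RNA of sorted cells was sequenced as single-end 75 nt reads from 2 control and 2 *Zfp541* KO testes, grouped by their labels. Per the submitters' processing notes and the methods, the authors trimmed reads with Trim Galore 0.5.0 and cutadapt 1.16, aligned them to UCSC mm10 with STAR 2.6.0a, quantified genes with RSEM 1.3.1 and deposited TPM per gene and library. TPM keeps no depth, so the counting error is unknown, and RSEM's estimated counts were not used here. A pseudocount of 1 was added and genes whose mean was 1 TPM or more were compared on the log2 scale with limma 3.58.1 (R 4.3.3), with a mean-variance trend, two-sided, and Benjamini-Hochberg adjustment over all genes at an FDR of 0.05. Differences on this scale understate those of low genes. Shares and ratios were tested by exact permutation over the 4 libraries. Loci and overlaps came from GENCODE M21, start regions from RefSeq, and oligonucleotides from the study's list. The replicate numbers are not stated to pair libraries. The 27 rows named by dates were given no gene name.

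The members and lists were chosen with earlier results of these data known. The genes named are the 8 members, *Rec8*, the 3 nearest profiles to *Zfp541* and to *Kctd19*, and in each list the 2 highest and 2 lowest by mean TPM and the 3 largest and 3 smallest differences; cell type markers are given as sums. *Tnp1*, *Prm1* and *Kctd4* were named after their values were seen. Alternatives covered the pseudocount (0.1 and 5), the filter (none and 5 TPM), median-ratio scaling, quantile normalization, no trend, an FDR of 0.1, the replicate block and leaving out each library.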

Additional observations from a re-analysis of the deposited data

How the results depend on the processing

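No gene passed the FDR under either other pseudocount, either other filter, median-ratio scaling, quantile normalization, limma without a trend, an FDR of 0.1 or with replicate number as a block (0 higher and 0 lower in each). In limma with the block, 656 genes had a higher and 451 a lower level at an unadjusted p under 0.05, against 1549 and 542 without it, and no member passed the FDR. Deviations from the group means correlated at -0.156 between libraries of the same number, so the crossed pairing was added after seeing the data; it gave 7 genes higher and 80 lower and none of the 8 members. Leaving out 1 library gave 0 to 5610 genes higher and 0 to 1875 lower, the largest counts without control 1 (5610 and 1375) and without control 2 (2248 and 1875), where the lone control is assumed to vary like the other pair.

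Over these 4 fits the log2 differences ranged from 0.35 to 0.98 for *Zfp541*, -0.40 to 0.24 for *Kctd19*, 0.27 to 0.54 for *Hdac1*, 0.73 to 0.84 for *Hdac2*, -0.50 to 0.41 for *Hdac3*, -0.12 to 0.26 for *Dnttip1*, 0.86 to 1.04 for *Trerf1* and 0.039 to 1.53 for *Elmsan1*. Of these *Kctd19* turned positive at 0.24 without control 1 and 0.066 without KO 1, *Hdac3* at 0.41 without control 2, and *Dnttip1* negative at -0.12 and -0.015. Median-ratio scaling brought the median of all genes to -0.0044, *Dnttip1* to -0.25 and the median of the KCTD family to -0.0068, since it removes the shift of the median. The median of the deacetylases and sirtuins, 0.33, was 0.20 when the pseudocount was 5, 0.049 after median-ratio scaling, 0.087 after quantile normalization and 0.24 to 0.50 with 1 library left out. *Elmsan1* was removed by the filter of 5 TPM. The difference in the log2 ratio of *Zfp541* to *Kctd19* was 0.68 to 0.83 with 1 library left out and 0.60 after quantile normalization, and that in the share of *Hdac2* was 4.54 to 8.69 percentage points and 6.14. The share of *Zfp541* differed by -2.66 to -1.70 and -0.87 percentage points. With 1 library left out, the medians were 0.29 to 0.59 for the ELM2-SANT genes, 0.17 to 0.57 for the other subunits, 0.16 to 0.37 for the KCTD family and 0.15 to 0.44 for all genes, in each case lowest without control 2.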
